A study of Mus musculus with 8 samples.

Results

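The genes described here are the replication-dependent histone genes of the mouse, most of which lie together in histone clusters. They encode the linker histone H1 and the core histones H2A, H2B, H3 and H4. They were chosen by name, as every gene of the arrays whose symbol in the scanner files starts with Hist1h, Hist2h, Hist3h or Hist4h. This gave 56 of 37063 gene names, read by 68 probes of 60 bases. RNA of CD4+ T cells isolated from C57BL/6 mice 4 days after immunisation was hybridised to 8 one-colour microarrays, 2 for each of 4 groups. The groups were mice that carried a fibrosarcoma, MCA205 expressing the antigen ovalbumin (OVA), and were treated with anti-IL-6R, an antibody to the receptor of the cytokine IL-6 (replicates 7 and 8); mice with the same tumour given a control antibody (replicates 3 and 4); tumour-free mice given anti-IL-6R (replicates 5 and 6); and tumour-free mice given the control antibody (replicates 1 and 2). All 4 groups were given OVA-specific TCR transgenic CD4+ T cells, and were then immunised with dendritic cells carrying OVA peptide. The isolates can hold the transferred cells and the hosts' own CD4+ T cells, since the labels name no step that parts them. No label states how many mice an array stands for, nor the purity of the isolates.

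Histones package DNA, and a cell that copies its genome needs new histone protein at the same time. The clustered genes are therefore transcribed mainly in S phase, and their mRNAs do not end in a poly(A) tail like other mRNAs but in a conserved stem-loop that the protein SLBP binds. Some clustered histone genes can also give longer polyadenylated transcripts that run past the stem-loop. The labelling kit named in the labels primes reverse transcription at poly(A) tails, so the arrays need not report the amount of stem-loop mRNA in proportion, which was not tested. Proliferating T cells are a rich source of these mRNAs, and testis has variants of its own, here Hist1h1t, Hist1h2aa and Hist1h2ba.

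The stem-loop itself lies inside 5 probes of these genes, shown because it marks the 3′ end of the non-polyadenylated message. The consensus hairpin of histone mRNAs, with any base allowed at 2 loop positions and searched in the orientation in which the file writes the probes, was present in 6 of 56587 probes (0.0106%), and 5 of the 6 belonged to these genes. Capitals mark the hairpin, and the probes are placed by the file on mm9 at chr13:23665629-23665688 (minus strand, Hist1h2bf), chr13:23853756-23853815 (minus, Hist1h3a), chr13:23627719-23627778 (plus, Hist1h3g), chr13:21874784-21874843 (minus, Hist1h3i) and chr3:96074056-96074115 (plus, Hist2h2bb).
Hist1h2bf: caaaGGCTCTTTTCAGAGCCacct
Hist1h3a: caaaGGCTCTTTTCAGAGCCaca
Hist1h3g: taaaGGCTCTTCTTAGAGCCaccc
Hist1h3i: aaaaGGCTCTTTTCAGAGCCccct
Hist2h2bb: aaaaGGCTCTTTTCAGAGCCactt

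Coding sequences of the H2A genes are nearly the same, and this limits which gene a probe reads. The probes of 4 H2A genes end at the stop codon and align base for base, with capitals at the 10 of 60 positions where the 4 do not all carry the same base. Any 2 of them differ at 5 to 8 positions. Their mm9 positions are chr13:23626113-23626172 (plus strand, Hist1h2af), chr13:21845304-21845363 (minus, Hist1h2ak), chr13:21902669-21902728 (plus, Hist1h2an) and chr3:96043781-96043840 (minus, Hist2h2aa2).
Hist1h2af: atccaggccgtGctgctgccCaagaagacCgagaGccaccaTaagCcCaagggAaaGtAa
Hist1h2ak: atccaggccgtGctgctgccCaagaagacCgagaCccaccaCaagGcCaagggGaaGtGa
Hist1h2an: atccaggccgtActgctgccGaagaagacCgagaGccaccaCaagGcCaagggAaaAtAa
Hist2h2aa2: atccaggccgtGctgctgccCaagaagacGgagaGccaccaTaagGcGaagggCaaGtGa

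Promoters of 3 members that changed most clearly in their class, those of Hist1h1b, Hist1h2ab and Hist1h4d, are shown with the elements known from histone genes. The windows are the 250 bases before the RefSeq start on GRCm38.p6, at chr13:21780626-21780875 (minus strand, Hist1h1b), chr13:23750838-23751087 (plus, Hist1h2ab) and chr13:23581318-23581567 (plus, Hist1h4d). Capitals mark matches, on either strand, to CCAAT (the CCAAT box), TATAAA (the TATA box), ATTTGCAT (the octamer) and AAACACA (the H1 box). No match overlaps another motif in these 3 windows.
Hist1h1b: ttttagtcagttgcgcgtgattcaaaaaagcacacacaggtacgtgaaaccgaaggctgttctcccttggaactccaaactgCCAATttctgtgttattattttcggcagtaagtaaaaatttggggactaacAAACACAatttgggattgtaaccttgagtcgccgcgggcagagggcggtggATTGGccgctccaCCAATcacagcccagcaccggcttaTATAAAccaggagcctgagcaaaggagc
Hist1h2ab: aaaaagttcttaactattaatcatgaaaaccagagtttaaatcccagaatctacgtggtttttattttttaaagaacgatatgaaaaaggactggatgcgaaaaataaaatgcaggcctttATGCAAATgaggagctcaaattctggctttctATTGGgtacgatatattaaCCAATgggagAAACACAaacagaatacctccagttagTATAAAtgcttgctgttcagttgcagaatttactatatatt
Hist1h4d: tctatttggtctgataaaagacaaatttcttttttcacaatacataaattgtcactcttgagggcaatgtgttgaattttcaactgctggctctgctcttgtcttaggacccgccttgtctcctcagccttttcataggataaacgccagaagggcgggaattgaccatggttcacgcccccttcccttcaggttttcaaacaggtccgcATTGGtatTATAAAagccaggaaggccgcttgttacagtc

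Among the 49 members with a RefSeq promoter in the table used, CCAAT was present in 41 (83.7%, against 33.8% of 32851 mouse promoters of the same length). By class these were 6 of 6 H1, 17 of 17 H2A, 11 of 11 H2B, 5 of 7 H3 and 2 of 8 H4 promoters, that of Hist1h4d being 1 of the 2. TATAAA was present in 24 (49.0%, against 12.4%). The octamer was present in 12 (24.5%, against 1.6%), namely in 7 of 17 H2A and 5 of 11 H2B promoters. The H1 box was present in 9 (18.4%, against 6.25%), including 5 of 6 H1 promoters. These are counts of letters in a window, not of bound sites.

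Of the 56 genes, 51 were measured, meaning that in at least 1 group both arrays found a probe of the gene well above background. All 6 H1, 15 of 18 H2A, 12 of 14 H2B, 9 of 9 H3 and 9 of 9 H4 genes were measured. Hist1h2ad, Hist1h2al, Hist1h2bq, Hist2h2aa1 and the pseudogene Hist3h2bb-ps were not. Hist1h2al matched the RefSeq symbol H2af-ps2, by its name also a pseudogene. Its probe, at chr13:51295494-51295553 (mm9), lies away from those of the other members on that chromosome. Each gene is given by its brightest probe, as the log2 of the processed signal over the array's 75th percentile, called the log2 scaled signal below. On this scale 49 members were well above background on all 8 arrays, Hist1h2ac on 7 and Hist1h2bp on 3. For 19 measured members (9 H2A, 4 H2B, 2 H3 and 4 H4) the probe also fits other transcripts, by at least 90% identity over 40 bases to another member's probe or by the RefSeq transcripts the file lists for it, and their values cannot be assigned to 1 gene. The file also places the probes of Hist1h2ai, Hist1h2an and Hist1h2ao at overlapping positions, although a second, dim probe of Hist1h2ai lies elsewhere on the chromosome, so these 3 may not be separate genes' values.

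Across the arrays, 53.1% to 59.8% of probes were well above background, no spot was saturated, and log2 signals correlated at 0.993 to 0.994 within and 0.978 to 0.992 between groups. Cd3e and Cd4, which mark CD4+ T cells, had log2 scaled signals of 6.19 to 6.47 and 5.15 to 5.65 on the 8 arrays. All arrays shared 1 slide, with the anti-IL-6R arrays in one slide column and the control antibody arrays in the other, and with tumour-bearing and tumour-free mice in different rows, so slide position and group cannot be told apart. Markers of other cell types differed between groups, and their values stand beside the results they move with. In RNA of a mixed isolate, fewer cells of a type and less RNA per cell cannot be told apart. The labels speak of independent experiments without saying which arrays share one, so the p-values rest on the spread between these arrays alone, which may be technical, and precision is limited by having 2 arrays a group.

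**Figure D1:**
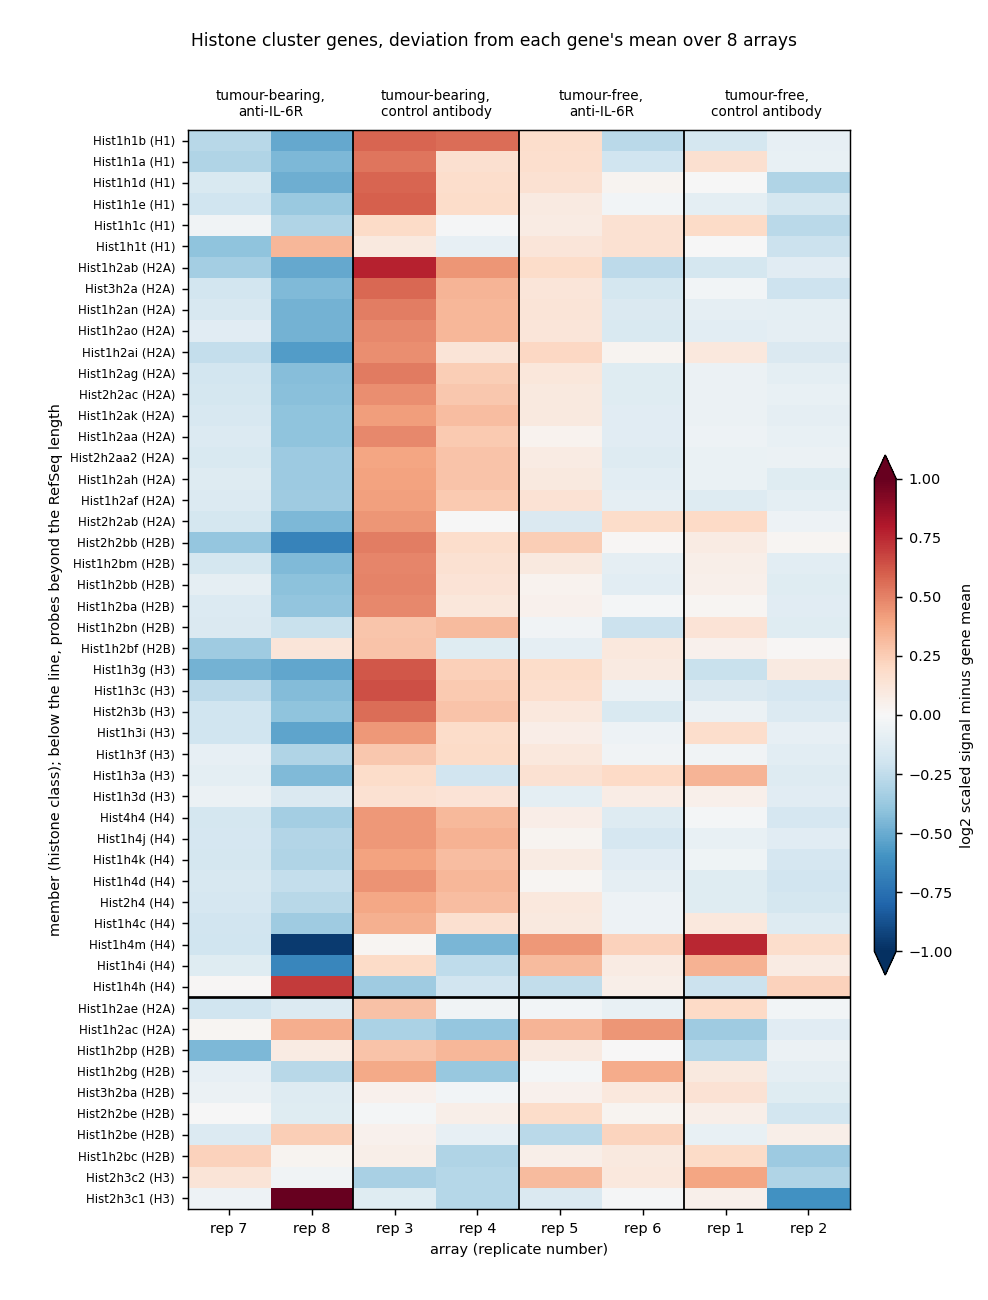
Log2 scaled signal of the 51 measured histone genes on each array, minus the gene's mean over the 8 arrays. Red is above and blue below the mean, columns are the 8 arrays by group, rows are genes ordered by class, and colours end at -1 and 1. Above the line most genes are blue on the 2 arrays of tumour-bearing mice under anti-IL-6R and red on the 2 under control antibody. Genes below the line, called beyond the RefSeq length by the rule given later, have no such order.

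The first comparison asks how CD4+ T cells primed in tumour-bearing mice differ from those primed in tumour-free mice under the control antibody. Of the 51 measured histone genes 12 rose and none fell, and 28 had an unadjusted p under 0.05. Among all 21537 genes tested, 4.27% rose, 6.24% changed in either direction and 5322 had an unadjusted p under 0.05 (limma). The median change of the histone genes was 0.34, beside 0.03 over all genes. Of the 51, 42 lay above 0, beside about 11840 of all 21537 genes. By class, 1 of 6 H1, 5 of 15 H2A, 0 of 12 H2B, 1 of 9 H3 and 5 of 9 H4 genes rose. In H2B, 4 genes had an unadjusted p under 0.05 and the smallest adjusted p was 0.13 (limma). Both arrays of tumour-bearing mice lay above both arrays of tumour-free mice for 34 of the 51 genes, against 30.1% of all genes. The test was limma's moderated test over all genes with Benjamini-Hochberg adjustment at 0.05. The count fell to 2 without replicate 1, to 0 without replicate 2, to 1 without replicate 3 and to 5 without replicate 4, and the median to 0.18 without replicate 3.

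The second comparison asks what anti-IL-6R changed in tumour-bearing mice. Of the 51 genes 27 fell and none rose, and 35 had an unadjusted p under 0.05. Among all genes tested, 3.84% fell, 5.88% changed in either direction and 6317 of 21537 had an unadjusted p under 0.05 (limma). The median change of the histone genes was -0.58, beside -0.05 over all genes. Of the 51, 45 lay below 0, beside about 12450 of all 21537 genes. By class, 2 of 6 H1, 12 of 15 H2A, 3 of 12 H2B, 4 of 9 H3 and 6 of 9 H4 genes fell. Both anti-IL-6R arrays lay below both control antibody arrays for 38 genes, against 36.3% of all genes. This comparison shares replicates 3 and 4 with the first, so the opposite signs of the 2 comparisons are not independent. The count was 0 without replicate 3, 9 without replicate 4 and 0 without replicate 8, and with no intensity trend in the variance it was 0 here and 1 in the first comparison.

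**Figure D2:**
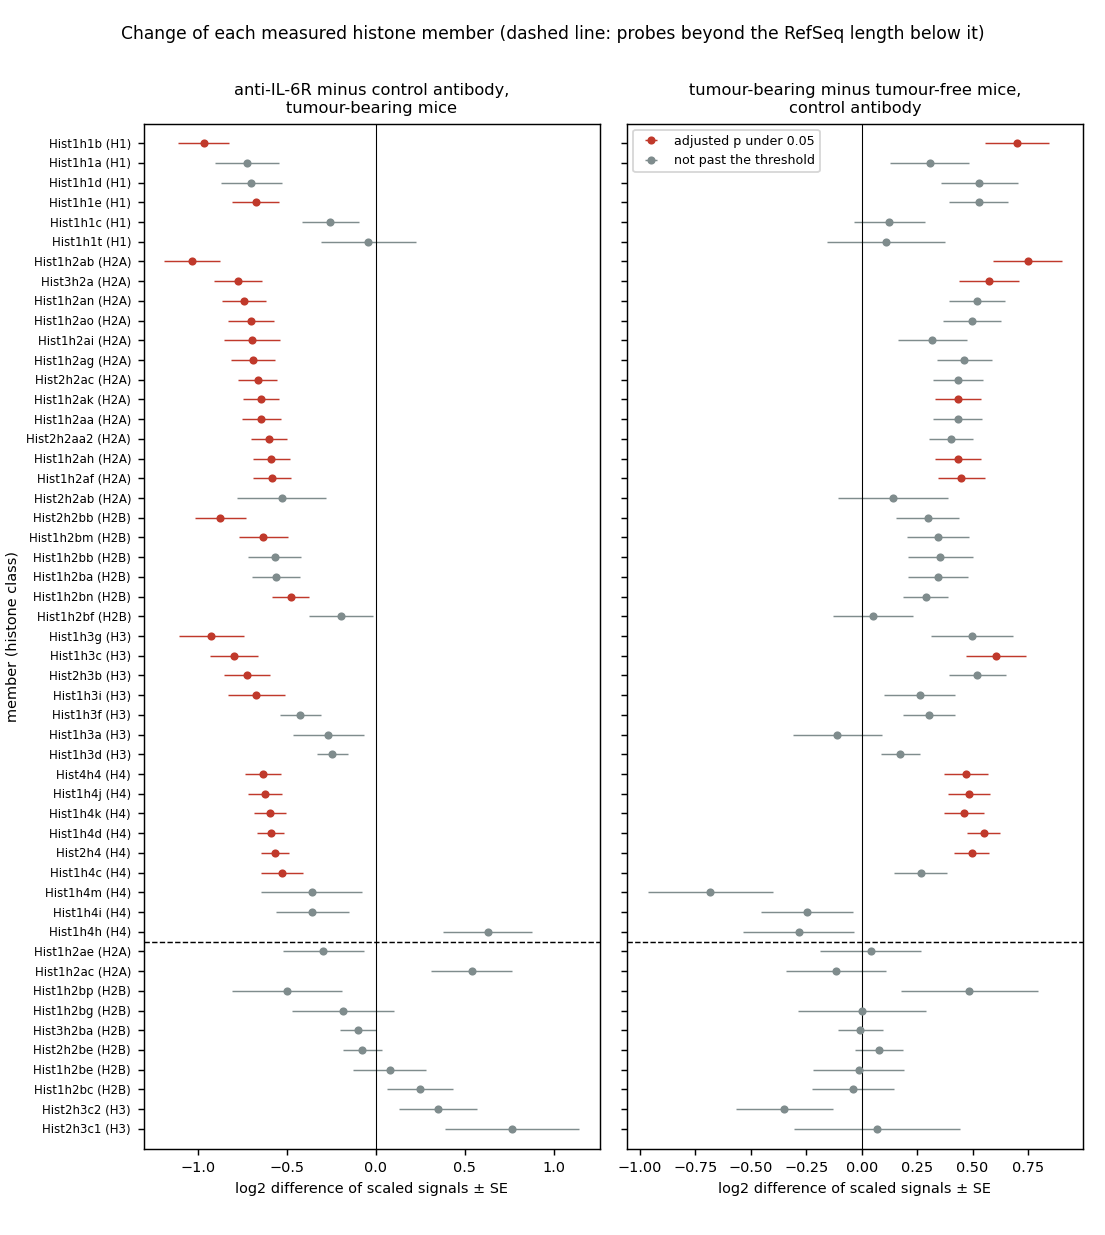
Change of each measured histone gene as a log2 difference of scaled signals (horizontal axis, point with its SE) for anti-IL-6R minus control antibody in tumour-bearing mice (left) and tumour-bearing minus tumour-free mice under control antibody (right). Red points passed an adjusted p of 0.05 (limma), 27 on the left and 12 on the right. All of them stand above the dashed line that parts probes called within from those called beyond the RefSeq length.

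The linker histones of the H1 class bind the DNA between nucleosomes. Hist1h1b (H1.5) had log2 scaled signals of 2.57 and 2.34 in tumour-bearing mice under anti-IL-6R, 3.43 and 3.41 in those under control antibody, 3.03 and 2.58 in tumour-free mice under anti-IL-6R, and 2.67 and 2.77 in tumour-free mice under control antibody. Replicates 3 and 4 lay above the other 6 arrays, which overlapped between tumour-free groups. It fell by 0.97 ± 0.14 (SE, n = 2 per group) with anti-IL-6R in tumour-bearing mice, a 1.96-fold lower signal (limma, adjusted p = 0.024), and rose by 0.70 ± 0.14 in tumour-bearing over tumour-free mice (adjusted p = 0.032). Hist1h1e fell by 0.67 ± 0.13 with anti-IL-6R (adjusted p = 0.033). The other 4 H1 genes did not pass in either comparison, with changes under anti-IL-6R between -0.72 (Hist1h1a, adjusted p = 0.053) and -0.04 (the testis gene Hist1h1t, adjusted p = 0.93).

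H2A and H2B pair as dimers in the nucleosome. In the H2A class Hist1h2ab had the largest change of all 51 genes in both comparisons. Its log2 scaled signals were 5.18 and 5.02 in tumour-bearing mice under anti-IL-6R, 6.30 and 5.97 under control antibody, 5.71 and 5.26 in tumour-free mice under anti-IL-6R, and 5.35 and 5.41 under control antibody. The control antibody arrays of tumour-bearing mice stood above all others, and the anti-IL-6R arrays of tumour-bearing mice below all others. It fell by 1.03 ± 0.16 with anti-IL-6R, a 2.04-fold lower signal (limma, adjusted p = 0.024), and rose by 0.75 ± 0.16, or 1.68-fold, in tumour-bearing over tumour-free mice (adjusted p = 0.032). Its probe is 53.2% identical at most to that of another member. Probes were compared with each other and not with whole transcripts, so this does not show that the probe reads 1 gene.

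Hist3h2a, the H2A gene of the third cluster on chromosome 11, had 5.36 and 5.10 in tumour-bearing mice under anti-IL-6R against 6.12 and 5.89 under control antibody, and 5.67 and 5.37 in tumour-free mice under anti-IL-6R against 5.52 and 5.34 under control antibody. It fell by 0.77 ± 0.14 with anti-IL-6R in tumour-bearing mice (limma, adjusted p = 0.027) and rose by 0.57 ± 0.14 with the tumour (adjusted p = 0.047). Hist1h2an had 7.24 and 6.92 in tumour-bearing mice under anti-IL-6R against 7.91 and 7.73 under control antibody. It fell by 0.74 ± 0.13 (adjusted p = 0.026), and its change with the tumour was 0.52 ± 0.13 (adjusted p = 0.0505), just short of the threshold. Hist1h2ao fell by 0.70 ± 0.13 and Hist1h2ai by 0.70 ± 0.16 with anti-IL-6R (adjusted p = 0.029 and 0.044). Hist1h2af rose by 0.45 ± 0.11 with the tumour (adjusted p = 0.047). The 9 H2A genes on shared probes, Hist1h2an, Hist1h2ao and Hist1h2af among them, are not separate measurements, and the position of the Hist1h2ai probe overlaps those of Hist1h2an and Hist1h2ao. Hist1h2aa, a testis histone, fell by 0.64 ± 0.11 with anti-IL-6R (adjusted p = 0.026), and its probe is 93.1% identical to that of Hist2h2ac.

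In the H2B class 3 genes fell with anti-IL-6R in tumour-bearing mice. Hist2h2bb, whose probe holds the stem-loop, had 1.32 and 1.03 in tumour-bearing mice under anti-IL-6R against 2.22 and 1.88 under control antibody, and 1.95 and 1.71 in tumour-free mice under anti-IL-6R against 1.78 and 1.72 under control antibody. Replicates 7 and 8 lay below the other 6 arrays. It fell by 0.87 ± 0.14 (limma, adjusted p = 0.025), while its difference between tumour-bearing and tumour-free mice was 0.30 ± 0.14 (adjusted p = 0.25). The testis gene Hist1h2ba had a change of -0.56 ± 0.14 under anti-IL-6R (adjusted p = 0.052), on a probe 89.8% identical to that of Hist1h2bb.

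H3 and H4 form the core tetramer of the nucleosome. Hist1h3c had log2 scaled signals of 3.20 and 3.03 in tumour-bearing mice under anti-IL-6R against 4.11 and 3.72 under control antibody, and 3.63 and 3.40 in tumour-free mice under anti-IL-6R against 3.32 and 3.30 under control antibody. It fell by 0.80 ± 0.13 with anti-IL-6R in tumour-bearing mice (limma, adjusted p = 0.025) and was the 1 H3 gene that rose with the tumour, by 0.61 ± 0.13 (adjusted p = 0.040). Hist1h3g, whose probe also holds the stem-loop, had -2.52 and -2.57 in tumour-bearing mice under anti-IL-6R against -1.43 and -1.81 under control antibody, and fell by 0.92 ± 0.18 (adjusted p = 0.035). Hist2h3b, read by a shared probe, had 1.709 and 1.504 against 2.467 and 2.194 in the same groups. It fell by 0.72 ± 0.13 (limma, adjusted p = 0.027). Of the other probes with the stem-loop, that of Hist1h3i fell by 0.67 ± 0.16 with anti-IL-6R (adjusted p = 0.049), while Hist1h3a had -0.27 ± 0.20 and Hist1h2bf -0.20 ± 0.18 (adjusted p = 0.41 and 0.50). None of the 5 stem-loop probes passed with the tumour, where Hist1h3a had -0.11 ± 0.20, Hist1h2bf 0.05 ± 0.18 and Hist1h3i 0.26 ± 0.16 (adjusted p between 0.36 and 0.90). The tumour differences of Hist1h3g and Hist2h3b, 0.50 ± 0.18 and 0.52 ± 0.13, did not pass (adjusted p = 0.15 and 0.053).

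Hist1h4d is an H4 gene whose probe several spots of each array carry. The 9 or 10 spots used per array had an SD of 0.0253 to 0.0487 on the log2 scale, which is technical error within an array only. Its log2 scaled signals were 6.85 and 6.77 in tumour-bearing mice under anti-IL-6R, 7.46 and 7.34 under control antibody, 7.03 and 6.92 in tumour-free mice under anti-IL-6R, and 6.88 and 6.82 under control antibody. It fell by 0.59 ± 0.08 with anti-IL-6R in tumour-bearing mice, a 1.51-fold lower signal (limma, adjusted p = 0.024), and rose by 0.55 ± 0.08, or 1.46-fold, with the tumour (adjusted p = 0.0075). A second probe of Hist1h4d, near the start of the mRNA, gave -0.56 and 0.50 for the same differences. For that probe 3 RefSeq transcripts are listed, so its values cannot be assigned to 1 gene.

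Hist2h4, on chromosome 3, had 5.78 and 5.67 in tumour-bearing mice under anti-IL-6R against 6.33 and 6.26 under control antibody, and 6.05 and 5.90 in tumour-free mice under anti-IL-6R against 5.82 and 5.77 under control antibody. It rose by 0.50 ± 0.08 with the tumour (limma, adjusted p = 0.012), and its change under anti-IL-6R in tumour-bearing mice was a fall of 0.57 ± 0.08 (adjusted p = 0.024). Hist1h4j, Hist4h4 and Hist1h4k rose by 0.48 ± 0.10, 0.47 ± 0.10 and 0.46 ± 0.09 with the tumour (adjusted p = 0.029, 0.035 and 0.028). The 5 H4 genes that rose thus changed by 0.46 to 0.55. Hist1h4j and Hist1h4k are read by shared probes, so the 5 may not be separate measurements.

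Exceptions in the H4 class, named after their values were seen, were Hist1h4h, Hist1h4i and Hist1h4m. Hist1h4h had -1.54 and -0.85 in tumour-bearing mice under anti-IL-6R against -1.91 and -1.74 under control antibody, a difference of 0.63 ± 0.25 (limma, adjusted p = 0.14). It was the only difference above 0 among the 41 genes whose probe was called within the RefSeq length by the rule given below. Hist1h4m, read by a shared probe, had 0.69 and 0.21 in tumour-bearing mice against 1.42 and 0.84 in tumour-free mice under control antibody. The difference was -0.68 ± 0.28 (limma, adjusted p = 0.18). Hist1h4i had a tumour difference of -0.25 ± 0.21 (adjusted p = 0.53).

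Where a probe sits on the transcript went along with the change it read. A split by position was made after the values were seen, and it is given as a description with no test. A probe was called beyond the RefSeq length when it ends past the length of the RefSeq gene, or, for genes whose RefSeq length exceeds 1000 bases, when it starts at base 500 or later. By this rule 41 measured members have their probe within the RefSeq length and 10 beyond. The 10 are Hist1h2ac, Hist1h2ae, Hist1h2bc, Hist1h2be, Hist1h2bg, Hist1h2bp, Hist2h2be, Hist3h2ba, Hist2h3c1 and Hist2h3c2, so 6 of them are H2B genes. Hist1h2bc, Hist1h2be, Hist1h2bp and Hist2h2be entered only by the second part of the rule. Their probes lie inside the RefSeq length, so for them beyond is a label and not a position. All 27 calls under anti-IL-6R and all 12 calls with the tumour were on the 41. The median change under anti-IL-6R in tumour-bearing mice was -0.62 over the 41 genes and 0.00 over the 10, and with the tumour it was 0.43 and -0.0028. Over all 60 measured probes, 44 of 45 within and 6 of 15 beyond read a lower signal under anti-IL-6R, with medians of -0.60 and 0.25. The split is also one of brightness. Mean log2 scaled signals ran from -4.14 (Hist1h2bp) to 2.02 (Hist1h2bc) over the 10 genes. Over the 41 they ran from -3.03 (Hist2h2ab) to 8.00 (Hist1h2ah). The part of brightness in the difference was not tested.

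**Figure D3:**
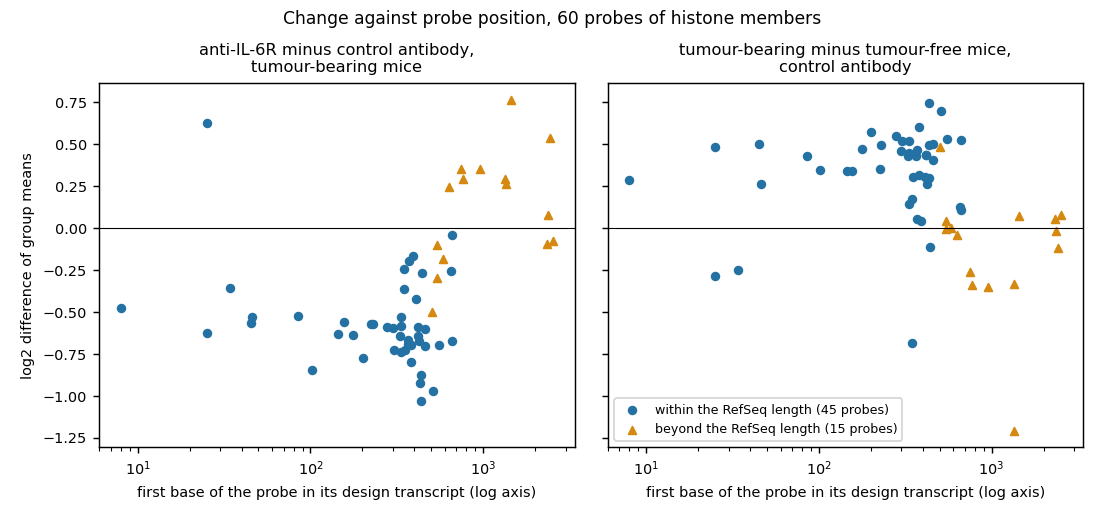
Log2 difference of group means (vertical axis) against the first base of the probe in its design transcript (horizontal log axis) for 60 probes of histone genes, for anti-IL-6R minus control antibody in tumour-bearing mice (left) and tumour-bearing minus tumour-free mice (right). On the left, circles, which are called within the RefSeq length, centre on -0.60, and triangles, which are called beyond it, centre on 0.25.

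For 4 genes both kinds of probe were measured, paired here by gene name alone. No RefSeq transcript is listed for the probes beyond of these genes. Whether both probes read transcripts of the same gene was not tested. Hist2h2bb fell at its stem-loop probe, as given above, whereas its probe beyond, placed by the file at chr3:96082754-96082813 (mm9), read -3.34 and -2.81 in tumour-bearing mice under anti-IL-6R against -3.44 and -3.24 under control antibody, and -2.97 and -2.75 in tumour-free mice under anti-IL-6R against -1.61 and -2.66 under control antibody. The difference under anti-IL-6R in tumour-bearing mice was 0.26 there and -0.87 at the stem-loop probe. With the tumour the probe beyond read -1.21, where replicate 1 lay far above the other arrays, and the stem-loop probe 0.30.

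The probe of Hist3h2a beyond the RefSeq length, at chr11:58768954-58769013 (mm9), read 2.46 and 2.54 in tumour-bearing mice under anti-IL-6R against 2.23 and 2.19 under control antibody, and 2.60 and 2.79 in tumour-free mice under anti-IL-6R against 2.68 and 2.41 under control antibody. Replicates 3 and 4 were thus the lowest arrays at this probe and the highest at the probe within. Its differences were 0.29 under anti-IL-6R and -0.34 with the tumour, against -0.77 and 0.57 at the probe within. The same 2 differences were 0.29 and -0.33 for Hist1h1c beyond, against -0.25 and 0.13 within. For Hist3h2ba they were -0.10 and -0.01 beyond, against -0.16 and 0.04 within, the smallest differences of the 4 genes.

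**Figure D4:**
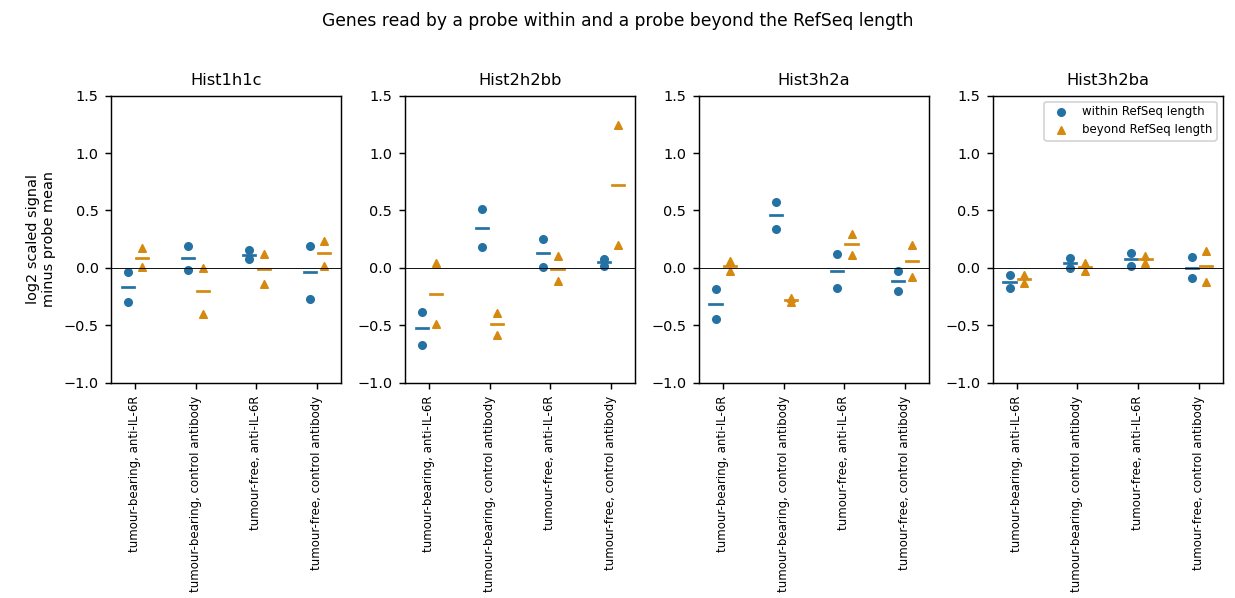
Log2 scaled signal minus the probe's mean over 8 arrays (vertical axis) for the 4 histone genes read both within (circles) and beyond (triangles) the RefSeq length, by group, with bars at group means. In Hist3h2a the circles of tumour-bearing mice under control antibody stand at the top and the triangles at the bottom.

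In tumour-free mice anti-IL-6R changed none of the 51 histone genes by limma's test, beside 4 of 21537 genes in all (0.0186%, with 0.00929% higher and 0.00929% lower). An unadjusted p under 0.05 (limma) was found for 1 histone gene, beside 1711 of all 21537 genes. The median change was 0.08, beside 0.03 over all genes. The 5 genes with the smallest p were Hist1h2ac at 0.62 ± 0.23, Hist2h4 at 0.18 ± 0.08, Hist1h4d at 0.13 ± 0.08, Hist1h3c at 0.21 ± 0.13 and Hist2h2be at 0.17 ± 0.11 (adjusted p = 0.60 to 0.69). Hist1h2ac, read beyond the RefSeq length, had -2.92 and -2.83 under anti-IL-6R against -3.62 and -3.38 under control antibody.

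With anti-IL-6R in both hosts, none of the 51 genes passed the threshold for tumour-bearing against tumour-free mice, beside 66 genes in all (0.306%). Here 21 histone genes had an unadjusted p under 0.05 (limma), beside 1717 of all 21537 genes. The median was -0.27, beside -0.06 over all genes. Of the 51, 47 lay below 0, beside about 13290 of all 21537 genes. The 5 with the smallest p were Hist2h2bb at -0.66 ± 0.14 (adjusted p = 0.20), Hist1h3g at -0.63 ± 0.18, Hist1h2ai at -0.51 ± 0.16, Hist1h4m at -0.91 ± 0.28 and Hist2h4 at -0.25 ± 0.08 (adjusted p = 0.50 to 0.54). Both arrays of tumour-bearing mice lay below both of tumour-free mice for 38 of the 51, against 34.3% of all genes.

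Whether the antibody effect differed between hosts was tested as the interaction term, the effect in tumour-bearing mice minus that in tumour-free mice. None of the 51 genes passed, beside 9 genes in all (0.0418%, with 0.00929% higher and 0.0325% lower). Of the 51, 32 had an unadjusted p under 0.05 (limma), beside 5426 of all 21537 genes. The smallest adjusted p of the 51 was 0.064. The median was -0.65, beside -0.09 over all genes. Hist2h4 had -0.75 ± 0.11 and Hist1h4d -0.72 ± 0.11 (adjusted p = 0.064 each), Hist1h3c -1.01 ± 0.19 and Hist1h4k -0.68 ± 0.13 (0.076 each), and Hist1h2ab -1.13 ± 0.22 (0.077). The fall of histone transcripts under anti-IL-6R is therefore not shown to differ between tumour-bearing and tumour-free mice at this threshold. Without replicate 4, 6 or 7 the count was 2, 6 and 10 instead of 0.

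Per array, the median deviation of the 51 genes from their means was -0.16 and -0.37 in tumour-bearing mice under anti-IL-6R, 0.41 and 0.18 in such mice under control antibody, 0.10 and -0.05 in tumour-free mice under anti-IL-6R, and -0.02 and -0.11 in tumour-free mice under control antibody. Replicates 3 and 4 were thus the 2 highest arrays, and 7 and 8 the 2 lowest. For the 10 genes called beyond the RefSeq length the array medians in tumour-bearing mice were -0.05 and -0.0058 with anti-IL-6R and 0.04 and -0.18 with control antibody. In tumour-free mice they were 0.05 and 0.10 with anti-IL-6R and 0.08 and -0.12 with control antibody. For these 10 genes the arrays of tumour-bearing mice under anti-IL-6R lay between those under control antibody. The tumour-free arrays under anti-IL-6R lay above all 4 arrays of tumour-bearing mice.

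Genes that work in the same phase of the cell cycle were read from lists. Of 45 S phase and DNA replication genes 27 fell with anti-IL-6R in tumour-bearing mice (median -0.46) and 13 rose with the tumour (median 0.36). Among all genes tested 3.84% fell and 4.27% rose in these comparisons. Ccne1, the cyclin that starts S phase, fell by 0.85 ± 0.11 (limma, adjusted p = 0.024) and rose by 0.63 ± 0.11 with the tumour (adjusted p = 0.019). E2f1, a transcription factor of S phase genes, fell by 0.71 ± 0.10 and rose by 0.63 ± 0.10 (adjusted p = 0.024 and 0.013), and Ccna2, the cyclin of S and G2, fell by 0.89 ± 0.14 and rose by 0.63 ± 0.14 (adjusted p = 0.025 and 0.043). Each of these 3 genes lost its call in 2 to 6 of the 8 fits that left out 1 array. The kinase gene Cdk2 had -0.11 ± 0.15 and 0.08 ± 0.15 (adjusted p = 0.67 and 0.80).

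Of 25 mitosis genes 23 fell with anti-IL-6R in tumour-bearing mice (median -0.85) and 11 rose with the tumour (median 0.58). The shares of all genes were 3.84% and 4.27%. Mki67, a marker of proliferating cells, fell by 0.94 ± 0.15 and rose by 0.77 ± 0.15 (limma, adjusted p = 0.025 and 0.024). In tumour-free mice anti-IL-6R changed none of the S phase and none of the mitosis genes by limma's test (5 and 0 with an unadjusted p under 0.05). Among all 21537 genes, 1711 had an unadjusted p under 0.05 in that comparison. The array medians of the mitosis list were -0.27 and -0.42 in tumour-bearing mice under anti-IL-6R, 0.60 and 0.38 under control antibody, 0.12 and -0.30 in tumour-free mice under anti-IL-6R, and -0.07 and -0.09 under control antibody.

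**Figure D5:**
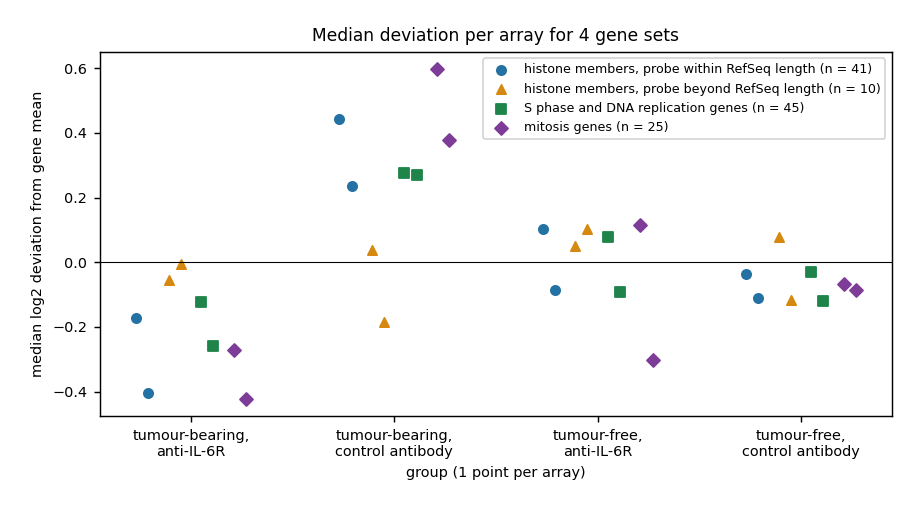
Median log2 deviation from the gene mean (vertical axis) on each array, by group, for histone genes read within (41) and beyond (10) the RefSeq length, S phase genes (45) and mitosis genes (25). Each point is 1 array. Tumour-bearing mice under control antibody are highest for all sets but the genes called beyond the RefSeq length, whose medians stay between -0.18 and 0.10.

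Of 22 factors that transcribe and process histone mRNA none passed under anti-IL-6R in tumour-bearing mice, beside 5.88% of all genes. Of the 22, 4 had an unadjusted p under 0.05 (limma), beside 6317 of all 21537 genes. With the tumour 1 fell and none rose, beside 6.24% of all genes, so the list's counts lie near those shares. That gene was Slbp, which encodes the stem-loop binding protein, at -0.78 ± 0.145 (adjusted p = 0.022). Its log2 scaled signals were 1.37 and 1.64 in tumour-bearing mice against 2.16 and 2.42 in tumour-free mice under control antibody. The 2 other measured probes of Slbp gave 0.21 and -0.03 for the same difference, so its fall was read by 1 probe of 3. Under anti-IL-6R in tumour-bearing mice Slbp had 0.22 ± 0.145 (adjusted p = 0.34).

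Npat, the coactivator of histone gene transcription, had -0.26 ± 0.13 under anti-IL-6R in tumour-bearing mice and 0.23 ± 0.13 with the tumour (limma, adjusted p = 0.24 and 0.34). Casp8ap2, which encodes FLASH of the histone locus body, had -0.04 ± 0.09 and -0.07 ± 0.09 (adjusted p = 0.81 and 0.71). The U7 snRNP subunits Lsm10 and Lsm11, which take part in cutting the 3′ end, had -0.20 ± 0.09 and 0.03 ± 0.10 under anti-IL-6R, and 0.23 ± 0.09 and 0.07 ± 0.10 with the tumour (adjusted p between 0.18 and 0.87). Zfp473, a zinc finger protein that binds the U7 complex, had -0.65 ± 0.17 and 0.57 ± 0.17 (adjusted p = 0.060 and 0.092). Eri1, the exonuclease that trims and degrades histone mRNA, had -0.12 ± 0.08 and 0.20 ± 0.08 (adjusted p = 0.36 and 0.18).

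Among 23 histone chaperones and assembly factors 3 fell with anti-IL-6R in tumour-bearing mice, beside 3.84% of all genes, and 2 rose with the tumour, beside 4.27% and near that share. Asf1b, which hands H3-H4 to assembly factors, fell by 0.79 ± 0.12 and rose by 0.54 ± 0.12 (limma, adjusted p = 0.024 and 0.041). Chaf1a and Chaf1b encode subunits of CAF-1, which deposits H3-H4 behind the replication fork. Chaf1a fell by 0.67 ± 0.13 and rose by 0.58 ± 0.13 (adjusted p = 0.035 and 0.046), and Chaf1b fell by 0.58 ± 0.10 (adjusted p = 0.025), with 0.31 ± 0.10 for the tumour difference (adjusted p = 0.10). Nasp, a histone chaperone, had -0.04 ± 0.09 and -0.05 ± 0.09 (adjusted p = 0.77 for each).

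Histone variants whose symbols lack the prefixes used to choose the members are mostly made independently of S phase. H2afx can also give a stem-loop mRNA. Of 14 measured, 3 fell with anti-IL-6R in tumour-bearing mice, beside 3.84% of all genes, and 3 rose with the tumour, beside 4.27%. H2afj fell by 0.59 ± 0.10 and rose by 0.44 ± 0.10. H2afx, whose phosphorylated form marks DNA breaks, fell by 0.49 ± 0.11 and rose by 0.47 ± 0.11 (limma, adjusted p = 0.025 to 0.048 over both genes). The clustered gene Hist1h2ah had -0.59 and 0.43 for the same 2 differences. Whether the H2afj probe also reads mRNAs of clustered H2A genes was not tested, so its changes may not be separate from theirs. Cenpa, the H3 variant of centromeres, fell by 0.53 ± 0.11 (adjusted p = 0.037), and H2afv rose by 0.34 ± 0.08 (adjusted p = 0.045). H2afz had -0.28 ± 0.07 under anti-IL-6R (adjusted p = 0.056), and H1f0, the linker histone of resting cells, -1.42 ± 0.34 (adjusted p = 0.051). The H3.3 genes H3f3a and H3f3b had -0.12 ± 0.09 and -0.0001 ± 0.10 under anti-IL-6R, and 0.10 ± 0.09 and -0.02 ± 0.10 with the tumour (adjusted p between 0.43 and 1.0).

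Markers of other cell types moved in the same 2 comparisons, and their part in the histone changes was not tested. Beside the counts of these lists, 3.84% of all genes fell and 2.04% rose with anti-IL-6R in tumour-bearing mice. With the tumour 4.27% of all genes rose and 1.97% fell. Of 23 measured erythroid genes, of 24 listed, 10 fell with anti-IL-6R in tumour-bearing mice (median -1.09) and 16 rose with the tumour (median 1.97). Gata1, the erythroid transcription factor, had 0.72 and 0.58 in tumour-bearing mice under anti-IL-6R against 1.51 and 1.49 under control antibody, and 0.84 and 0.93 in tumour-free mice under anti-IL-6R against 0.71 and 0.71 under control antibody. The summed scaled signal of the erythroid list was 556 to 673 in tumour-bearing mice under anti-IL-6R, 562 to 834 under control antibody, 576 to 681 in tumour-free mice under anti-IL-6R and 252 to 434 under control antibody. In tumour-free mice the erythroid median was 0.69 higher under anti-IL-6R, beside 0.08 for the histone genes. None of the 23 erythroid genes passed the threshold there. An unadjusted p under 0.05 (limma) was found for 11 of them, beside 1711 of all 21537 genes.

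Of 19 neutrophil and myeloid genes 7 fell with anti-IL-6R in tumour-bearing mice (median -1.42) and 8 rose with the tumour (median 1.55), and the summed signal was 199 to 210 in tumour-bearing mice with anti-IL-6R, 251 to 252 with control antibody, 169 to 299 in tumour-free mice with anti-IL-6R and 179 to 225 with control antibody. For 10 plasma cell genes, of which 2 fell with anti-IL-6R and 6 rose with the tumour, it was 37.5 to 40.3 in tumour-bearing mice with anti-IL-6R, 50.8 to 55.3 with control antibody, 29.1 to 33.4 in tumour-free mice with anti-IL-6R and 29.7 to 30.1 with control antibody. For 17 B cell genes, of which 5 rose with anti-IL-6R and 8 fell with the tumour, it was 70.0 to 73.2 in tumour-bearing mice with anti-IL-6R, 42.0 to 56.6 with control antibody, 72.5 to 72.5 in tumour-free mice with anti-IL-6R and 67.0 to 84.5 with control antibody. For 15 NK cell genes (4 higher with anti-IL-6R, 2 higher and 3 lower with the tumour) it was 98.95 to 107 in tumour-bearing mice with anti-IL-6R, 81.3 to 105 with control antibody, 102 to 111 in tumour-free mice with anti-IL-6R and 87.2 to 88.2 with control antibody. For 16 macrophage and monocyte genes (1 higher and 2 lower with anti-IL-6R, 2 higher with the tumour) it was 375 to 428 in tumour-bearing mice with anti-IL-6R, 290 to 388 with control antibody, 338.7 to 392.4 in tumour-free mice with anti-IL-6R and 305 to 318 with control antibody. For 16 pan T cell genes, of which 1 fell with anti-IL-6R and 1 rose with the tumour, it was 889 to 1002 in tumour-bearing mice with anti-IL-6R, 1103 to 1137 with control antibody, 1017 to 1061 in tumour-free mice with anti-IL-6R and 938 to 1045 with control antibody. Each pan T cell count was 6.25% of its list, near the shares of all genes given above. No marker was listed at 0, as the processed signal carries a substitute value for spots at background. Mpo, Ltf, Sdc1 and Ncr1 were each under -3 on at least 1 control antibody array.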

How the data were processed

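RNA of 8 CD4+ T cell isolates was hybridised to 8 arrays, 1 per sample. The deposited scanner files give intensity values, which the authors extracted with Agilent's software (the submitters' processing notes name Feature Extraction 10.10.1.1). Per the file headers, the processed signal was background-subtracted and probe positions are on mm9. The authors' deposited value table holds log2 values; no label states its processing, its values equal those computed here closely, and it served as an alternative. All sample columns were used.

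Outlier spots (60 to 95 per array) were dropped, spots of a probe averaged, and the log2 signal of 56587 probes set relative to the 75th percentile of its array (500.4 to 526.5). A probe was kept (32039 were) if some group had it well above background on each of its arrays, and the brightest represented its gene name (21537 genes). limma 3.58.1 in R 4.3.3 with data.table version 1.17.8 fitted 4 group means with an intensity trend (4 residual and 4.15 prior degrees of freedom). Tests were two-sided, with Benjamini-Hochberg adjustment over all genes and a threshold of 0.05. On data simulated for the tumour comparison 60% of changes of 1 and 94% of changes of 2 (log2) were called. The histone genes changed by -0.68 to 0.75 in that comparison, sizes that were not simulated, so these rates do not apply to them. Python 3.11.15 with pandas 2.3.3, numpy 2.4.6 and matplotlib 3.10.9 did the rest. RefSeq tables of GRCm38.p6 gave gene lengths and promoters, and all 56 symbols matched.

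Members and gene lists were chosen with earlier results of these data known. Named members were, per comparison, up to 10 per direction past the threshold with the largest change, or the 5 with the smallest p where fewer than 5 passed. From each list the genes that passed were named where 4 or fewer did, otherwise the 4 with the smallest p could be, and 21 further genes listed by name. Cd3e and Cd4, the lowest markers, and members given as class examples, testis genes, exceptions, stem-loop or paired probes were named after their values were seen. Alternatives were another background correction, 2 normalizations, 2 filters, mean probes, no trend, array weights, fits of only the groups compared, the deposited table, and leaving out each array. 2 more, members on unshared probes and members with a probe within the RefSeq length, were chosen after seeing the data.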

Additional observations from a re-analysis of the deposited data

How the results depend on the processing

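No value past the threshold changed direction under the alternatives run. The count of 12 histone genes that rose with the tumour was 7 with the median of all genes set to 0, 2 with no filter on dim probes, 1 with no intensity trend, 3 with array weights and 7 of 32 on unshared probes. It was between 12 and 17 with normexp, quantile normalization, the stricter filter, only the groups compared, the deposited table and probes within the RefSeq length, and 8 with the mean of kept probes. The count of 27 that fell with anti-IL-6R in tumour-bearing mice was 0 with no filter, 0 with no trend, 13 of 32 on unshared probes, and 19 to 30 under the other 9. With 1 array left out, calls in either direction ranged from 0 to 28, the 28 being 27 that fell and Hist2h3c1, which was 1.37 higher (adjusted p = 0.039) without replicate 7; the count of the tumour effect from 0 to 16 and that of the interaction from 0 to 10, while both other counts stayed at 0. None of the 12 and none of the 27 genes stayed past the threshold in all 8 fits that left out 1 array, and the calls of Ccne1, E2f1, Ccna2, Mki67, Asf1b, Chaf1a, Chaf1b, H2afj, H2afx, H2afv, Cenpa and Slbp were lost in 2 to 7 of them. The cause was not tested. The median tumour change ranged from 0.1768 to 0.485 with 1 array left out, and the median antibody change in tumour-bearing mice from -0.69 to -0.49. With the mean of kept probes, which adds the probe beyond the RefSeq length to Hist3h2a, its tumour difference was 0.12, its antibody difference -0.24 and Slbp's tumour difference -0.20, all no longer past the threshold. A fit of only the groups compared was not run for the interaction, which needs all 4. No paired analysis was possible because the replicate numbers run from 1 to 8 and no number is shared between groups. The lowest signal well above background was 24.2 to 36.3 before scaling, which limits the dimmest members. A fit that leaves out an array takes the lone array of its group to vary like the other groups.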
